A study of Mus musculus with 46 samples.

Results

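The 8 genes described here encode the endothelial nitric oxide synthase, the endothelin system and the flow-responsive factors of the vessel wall: Nos3, Edn1, Ece1, Ednra, Ednrb, Klf2, Klf4 and Thbd. They were chosen by name as textbook genes of these pathways, with earlier results of these data known. They are 8 of the 53465 genes in the deposited table. Gene expression was measured in CD31+ endothelial cells, PDGFRB+ stromal cells, F4/80+ macrophages and LTL+ proximal tubular cells, sorted by flow cytometry from the kidneys of wild-type mice. Per the study's methods these were male C57BL/6 mice aged 8 to 12 weeks. Mice had sham surgery (Sham), unilateral ureteric obstruction (UUO), in which 1 ureter is tied, or UUO followed by reimplantation of the ureter (RUUO), with cull 14 days after reversal. The methods give cull at day 2 or day 7 after UUO, and the labels do not say which day each UUO library comes from. CD31+ cells were represented by 4 Sham, 3 UUO and 4 RUUO libraries, PDGFRB+ cells by 4 of each, F4/80+ cells by 4, 4 and 3, and LTL+ cells by 3, 4 and 3. A sort on a surface marker does not separate the subtypes within it: CD31+ takes arterial, capillary, glomerular, venous and lymphatic endothelium together, and PDGFRB+ takes fibroblasts, pericytes, mesangial cells and smooth muscle together.

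Nitric oxide made by Nos3 in endothelium diffuses into the vessel wall, where it activates soluble guanylate cyclase and relaxes smooth muscle. Endothelin-1, the product of Edn1, is cut from its precursor by the converting enzyme Ece1 and acts on a pair of receptors. Ednra on mural and stromal cells drives constriction and matrix synthesis, and Ednrb on endothelium clears the peptide and promotes nitric oxide release. Laminar flow over endothelium induces the transcription factors Klf2 and Klf4 through the MEK5, ERK5 and MEF2 cascade, and these raise Nos3 and Thbd, the thrombin receptor that starts the anticoagulant protein C pathway, and lower Edn1.

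The deposited values are FPKM, in which the fragments of a gene are divided by its transcript length and by the library's total, so that levels can be compared between genes. The table holds no counts, so the depth of each library is unknown and no counting interval can be given. Relative depth, estimated from the smallest steps among low values of short genes, ranged from 0.613 to 1.62 times that of the median library. The 37 mitochondrial genes took 20.2% to 45.8% of the FPKM sum in CD31+, PDGFRB+ and F4/80+ libraries and 58.7% to 75.6% in LTL+ libraries. In CD31+ libraries 10 general endothelial markers summed to between 3211 and 4347 FPKM. These sums were 48.2 to 144 in PDGFRB+, 23.6 to 68.4 in F4/80+ and 13.9 to 40.9 in LTL+ libraries. Markers of endothelial subtypes went both ways. In Sham, glomerular and lymphatic sums had a higher mean in CD31+ cells, and arterial, peritubular and venous sums in PDGFRB+ cells. The venous sums were 9.24 to 15.71 FPKM in CD31+ Sham and 102.16 to 144.99 in PDGFRB+ Sham. CD31+ Sham libraries also carried podocyte markers, at 288.09 to 622.4 FPKM, and markers of the thick limb, distal tubule and collecting duct. Differences were tested with limma on the log2(FPKM + 1) scale, which understates the change of low genes, and a gene was called where its p, adjusted over all genes tested by the Benjamini-Hochberg method, was under 0.05. All changes are on that scale. UUO against Sham asks what obstruction changed, and RUUO against UUO or Sham what was different after its reversal. RUUO also differs from UUO by a later cull and a further operation, which cannot be told apart from reversal here. These comparisons share libraries and are not independent of each other. The series text gives 4 mice per group, but the labels do not tie libraries to mice, so the tests measure the spread between libraries.

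RefSeq promoter windows (GRCm38.p6, 250 bases before to 50 after the start) were available for 6 of the 8 genes: Edn1, Ece1, Ednra, Ednrb, Klf2 and Klf4. Both strands were searched for the palindromic MEF2 site (CTA and TAG with 4 bases between), the KLF box CACCC, the shear stress element GAGACC and the AP-1 site TGANTCA. The MEF2 site was found in Klf2 alone among the 6, and in the windows of 4.23% of all 27025 genes. The shear stress element was found in Edn1 alone among the 6, on the reverse strand, and for 18.4% of all genes. The KLF box was found in 4 of the 6 (Edn1, Ece1, Ednrb and Klf2) and for 59.8% of all genes, and AP-1 in none of the 6 and for 8.97% of all genes. A gene counts here if any of its windows holds the motif. The 3 stretches that follow show these matches, in capitals, in a flow-induced factor, the ligand and the receptor called in CD31+ cells.
Klf2, chr8:72318934-72318963, plus strand, MEF2 site from position -118 to the RefSeq start: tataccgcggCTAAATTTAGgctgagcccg
Edn1, chr13:42301366-42301395, plus strand, shear stress element as its reverse complement, from position -98: aggttctgcagcGGTCTCtgtctagtgggt
Ednrb, chr14:103843779-103843808, minus strand, KLF box from position -95: cattgggacacgCACCCtccccagtctgga
The first 2 lie upstream of the spans that the deposited table gives for Klf2 (chromosome 8, 72319033 to 72321656) and Edn1 (chromosome 13, 42301476 to 42307990). The third lies inside the span of Ednrb (chromosome 14, 103814625 to 103844402). In the table's coordinates (mm10) Nos3 lies on chromosome 5 (24364810 to 24384474), Ece1 on chromosome 4 (137862237 to 137965229), Ednra on chromosome 8 (77663031 to 77724464), Klf4 on chromosome 4 (55527143 to 55532466) and Thbd on chromosome 2 (148404466 to 148408188). A match is a description of these letters and not a bound site.

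In sham kidneys 7 of the 8 genes had their highest level in CD31+ cells, and Ednra, the constrictor receptor, had its highest level in PDGFRB+ cells. Ece1 was the most abundant in CD31+ Sham, at 362 ± 105 FPKM (SD, n = 4), followed by Thbd at 184 ± 44.7, Ednrb at 71.4 ± 22.9, Klf4 at 48.5 ± 9.37 and Klf2 at 32.6 ± 3.49. Edn1 was at 18.5 ± 3.94 FPKM, Nos3 at 10.3 ± 1.5 and Ednra at 2.01 ± 0.749 (SD, n = 4 each). All 8 differed between CD31+ and PDGFRB+ Sham, 7 higher in CD31+ and Ednra lower, where 24.2% of all genes tested were called, 10.2% as higher and 14% as lower. Ednra was at 29.1 ± 7.67 FPKM in PDGFRB+ Sham (SD, n = 4), a difference of -3.33 ± 0.26 (SE; limma, adjusted p = 2.44e-08) for CD31+ against PDGFRB+. Ece1 and Ednrb differed in the other direction, by 3.97 ± 0.26 (limma, adjusted p = 3.8e-09) and 3.90 ± 0.28 (adjusted p = 1.18e-08, limma).

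Nos3 was close to absent outside endothelium. Its Sham level was 0.07 to 0.26 FPKM in PDGFRB+, 0 to 0.1 in F4/80+ and 0.02 to 0.07 in LTL+ libraries, too low for the log2(FPKM + 1) scale to separate these populations. All 8 genes were higher in CD31+ Sham than in F4/80+ Sham, where 45.7% of genes were called and 24.5% as higher, and than in LTL+ Sham, where 62.3% were called and 53.6% as higher. Between PDGFRB+ and F4/80+ Sham, Edn1, Ednra, Ednrb and Thbd were higher in PDGFRB+, where 48.1% of genes were called and 28% as higher. The Ednrb call of 0.85 was lost without PDGFRB+ Sham replicate 2 or F4/80+ Sham replicate 4 (0.64 to 0.74; limma, adjusted p = 0.0620 to 0.0743), and with quantile normalization or all libraries in 1 fit (0.61 to 0.85; limma, adjusted p = 0.0659 to 0.104). Klf2 (6.27 ± 2.06 and 6.00 ± 0.971 FPKM) and Klf4 (6.75 ± 5.35 and 5.53 ± 2.45 FPKM) did not differ beyond their spread between these 2 populations (SD, n = 4 each). LTL+ Sham had the lowest mean for all 8 genes on the log2 scale, but for 5 genes the sign of the difference from F4/80+ Sham depended on scaling. Scaled without mitochondrial genes, Nos3, Ece1 and Ednra were higher in LTL+ than in F4/80+ Sham, and Ece1 also higher than in PDGFRB+ Sham, and with quantile normalization Ece1, Ednrb and Thbd were higher in LTL+ than in F4/80+ Sham. PDGFRB+ Sham exceeded LTL+ Sham for 6 genes (67.6% of genes called, 59.7% as higher), of which Ednrb lost its call with quantile normalization (0.52; limma, adjusted p = 0.161), and F4/80+ Sham exceeded LTL+ Sham for 4 (64.9% called, 52.4% as higher), the latter falling to 2, Klf2 and Klf4, without mitochondrial genes or with quantile normalization.

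**Figure D1:**
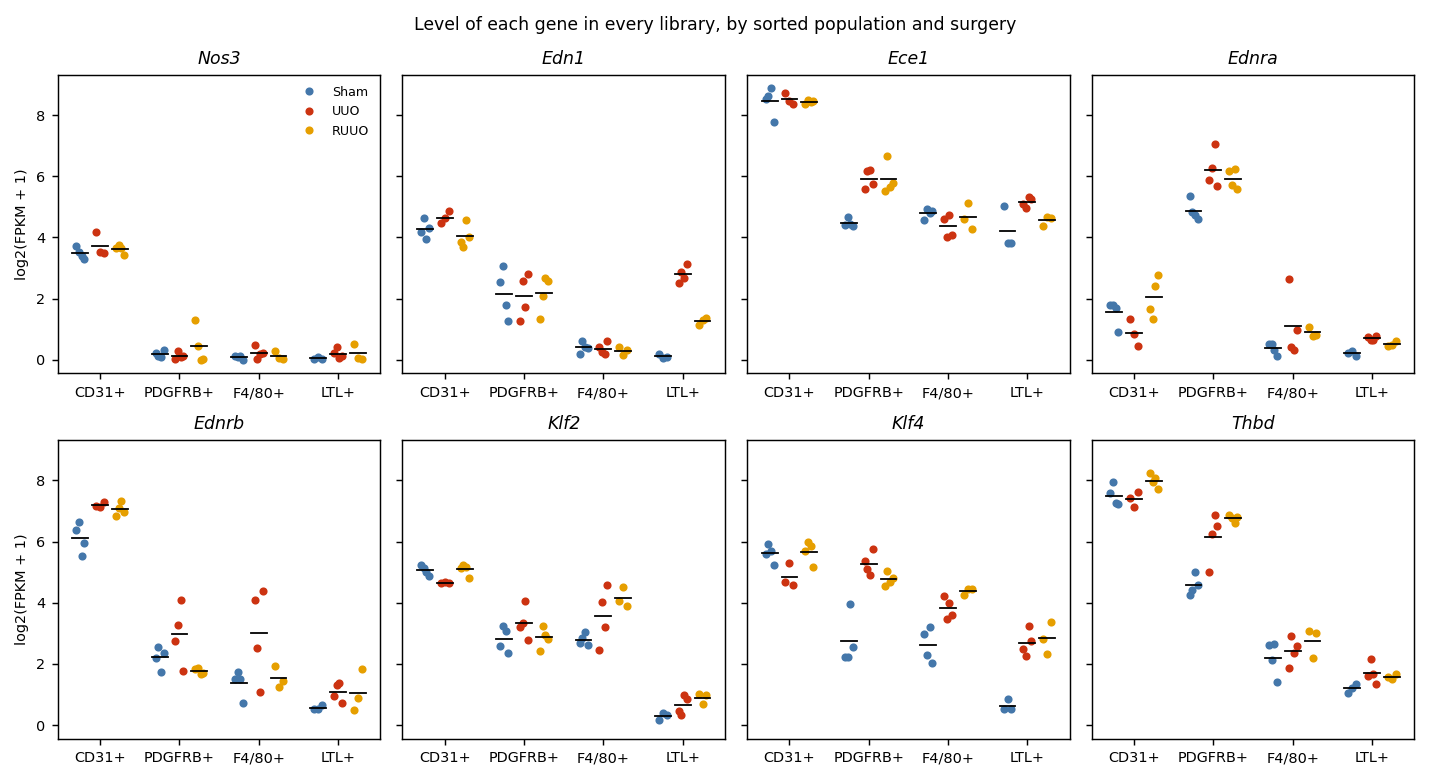
Each panel plots 1 gene as log2(FPKM + 1), 1 point per library, in the 4 sorted populations after Sham, UUO and RUUO, with bars at the group means. In Sham, all genes but Ednra are highest in CD31+ cells, and Edn1 in LTL+ cells is near 0 in Sham and between 4.73 and 7.83 FPKM in UUO.

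In CD31+ cells the endothelin B receptor Ednrb was the only one of the 8 genes called after UUO, and it was called as higher. The background was 1.98% of the 13393 genes tested, with 1.28% called higher. Ednrb was at 81.3, 97.7, 45.1 and 61.5 FPKM in the Sham libraries, at 142, 138 and 156 in UUO and at 112, 137, 158 and 125 in RUUO. Every UUO and RUUO library stood above every Sham library. The change was 1.07 ± 0.23 for UUO against Sham (SE; limma, adjusted p = 0.0258), a ratio of means of 2.04, and 0.94 ± 0.21 for RUUO against Sham (limma, adjusted p = 0.0342), where it was again the only one of the 8 called (background 1.77%, and 1.4% as higher). Both calls sit near the threshold. For UUO the call was lost without Sham replicate 3 or 4 or any 1 of the 3 UUO libraries (change 0.87 to 1.11; limma, adjusted p = 0.0571 to 0.0781), and for RUUO without any 1 library other than Sham replicate 2 (change 0.74 to 1.02; limma, adjusted p = 0.0514 to 0.127).

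The other endothelin genes of CD31+ cells did not pass. Edn1 was at 17.1, 23.8, 14.5 and 18.7 FPKM in Sham, at 21.03, 23.65 and 27.86 in UUO, and at 13.42, 11.95, 22.61 and 15.2 in RUUO, with overlapping groups. Its change was 0.38 ± 0.26 for UUO against Sham (limma, adjusted p = 0.590). Ece1 was level at 362 ± 105, 366 ± 45.6 and 345 ± 14.1 FPKM in Sham, UUO and RUUO (SD, n = 4, 3 and 4). Ednra was low throughout, from 0.9 to 2.48 FPKM in Sham libraries, 0.37 to 1.51 in UUO and 1.52 to 5.83 in RUUO. Every RUUO library lay above every UUO library for Ednra, a change of 1.17 ± 0.44 that did not pass (limma, adjusted p = 0.399). The mural markers Acta2, Myh11, Tagln and Cnn1 summed to 37.1 to 68.65 FPKM in the CD31+ Sham libraries, 27.2 to 69.1 in UUO and 76.9 to 137 in RUUO. Sham and UUO thus overlapped in these sums. The part of these markers in the Ednra values was not tested.

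Nos3 did not pass in CD31+ cells. It was at 12.3, 10.4, 9.49 and 8.83 FPKM in Sham, at 17.0, 10.6 and 10.3 in UUO, and at 11.6, 12.5, 11.6 and 9.69 in RUUO, and the groups overlapped throughout (limma, adjusted p = 0.763 for UUO against Sham and 0.840 for RUUO against Sham). Of 23 measured genes of nitric oxide synthesis and signalling, 1 was called after UUO, Cav1, the caveolar protein that binds and restrains Nos3. Cav1 rose by 0.82 ± 0.19 (limma, adjusted p = 0.0372), a call lost in 7 of 8 alternative settings. The list's median change was 0.06, beside 0.03 over all genes. In RUUO against Sham none of the 23 was called by limma, with 3 at an unadjusted p under 0.05, beside 1895 of all 13393 genes tested.

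The flow-induced factors Klf2 and Klf4 were lower in CD31+ UUO libraries by their values, without passing the test. Klf2 was at 36.4, 34.5, 31.0 and 28.6 FPKM in Sham, at 24.3, 24.5 and 24.0 in UUO, and at 33.9, 37.0, 35.0 and 27.1 in RUUO. The 3 UUO libraries lay below all 8 others, with a change of -0.41 ± 0.20 against Sham (SE; limma, unadjusted p = 0.0601, adjusted p = 0.403). Klf4 was at 46.8, 59.4, 51.0 and 36.9 FPKM in Sham, at 24.8, 38.1 and 22.9 in UUO, and at 50.7, 62.1, 56.7 and 35.1 in RUUO. Its UUO values overlapped the others by 1 library, and the change was -0.76 ± 0.25 (limma, unadjusted p = 0.00854, adjusted p = 0.164).

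Thbd was at 189, 245, 152 and 150 FPKM in CD31+ Sham, at 172, 140 and 194 in UUO, and at 299, 245, 270 and 210.3 in RUUO. All RUUO libraries lay above all UUO libraries, a change of 0.60 ± 0.20 (limma, unadjusted p = 0.00963, adjusted p = 0.356), and they overlapped Sham. Between RUUO and UUO none of the 8 genes was called by limma (background 0.0597%), with 5 at an unadjusted p under 0.05: Klf4, Thbd, Ednra, Edn1 and Klf2. Over all 13393 genes tested, 1369 were under that unadjusted cut. A missed call does not show that levels were alike.

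The wider lists gave few calls in CD31+ cells. None of 21 flow-sensing genes, which include Piezo1, Pecam1, Mapk7 (ERK5) and the MEF2 factors, was called by limma after UUO or RUUO against Sham (6 and 2 at an unadjusted p under 0.05). None of 10 other Krueppel-like factors was called (3 and 1 at an unadjusted p under 0.05), and none of 12 other endothelin axis genes (2 and 2). Over all 13393 genes tested, 1788 and 1895 were under that unadjusted cut. Of 16 anticoagulant and procoagulant genes, 1 was called after UUO, as higher, with 7 at an unadjusted p under 0.05 (limma). The median change of this list after UUO was 0.44, beside 0.03 over all genes. In RUUO against Sham 2 of the 16 were called, both higher, with 5 at an unadjusted p under 0.05 (limma). The median was then 0.32, beside 0.19 over all genes. Entpd1, which degrades ATP and ADP on the endothelial surface, rose by 1.49 ± 0.24 in RUUO against Sham (limma, adjusted p = 0.00295). The thrombin receptor F2r rose by 0.73 ± 0.15 in the same comparison (limma, adjusted p = 0.0217), a call lost without Sham replicate 1 or RUUO replicate 2, 4 or 6 (limma, adjusted p = 0.0613 to 0.0803).

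Other signals moved with the CD31+ groups. Of 15 immediate early and dissociation genes, 6 were higher after UUO and 12 in RUUO against Sham. Their sum ranged from 399 to 515 FPKM in Sham libraries, from 772 to 804 in UUO libraries and from 1005 to 1510 in RUUO libraries. Glomerular endothelial markers (Ehd3, Sost and Lpl) summed to 271 to 638 FPKM in Sham libraries, 152 to 306 in UUO and 270 to 418 in RUUO. Venous markers (Nr2f2 and Ackr1) summed to 9.24 to 15.7 FPKM in Sham libraries, 17.8 to 63.7 in UUO and 23.1 to 47.8 in RUUO. Lymphatic markers (Prox1, Lyve1 and Flt4) had sums of 42.2 to 62.5 FPKM in Sham, all below the 73.4 to 93.1 of UUO and the 84.2 to 99.6 of RUUO. For Ednrb and the venous sum, too, every Sham library lay below every UUO and RUUO library. The lymphatic sum averaged 84.4 FPKM in UUO and 89.0 in RUUO, and Ednrb 145 in UUO and 133 in RUUO. In both, the UUO and RUUO libraries overlapped. Markers of the thick limb, distal tubule and collecting duct summed to a mean of 416 FPKM in Sham, 127 in UUO and 151 in RUUO. The part of these in the Ednrb, Klf2 and Klf4 values was not tested. In bulk sorted cells, fewer cells of a subtype and less RNA per cell cannot be told apart.

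**Figure D2:**
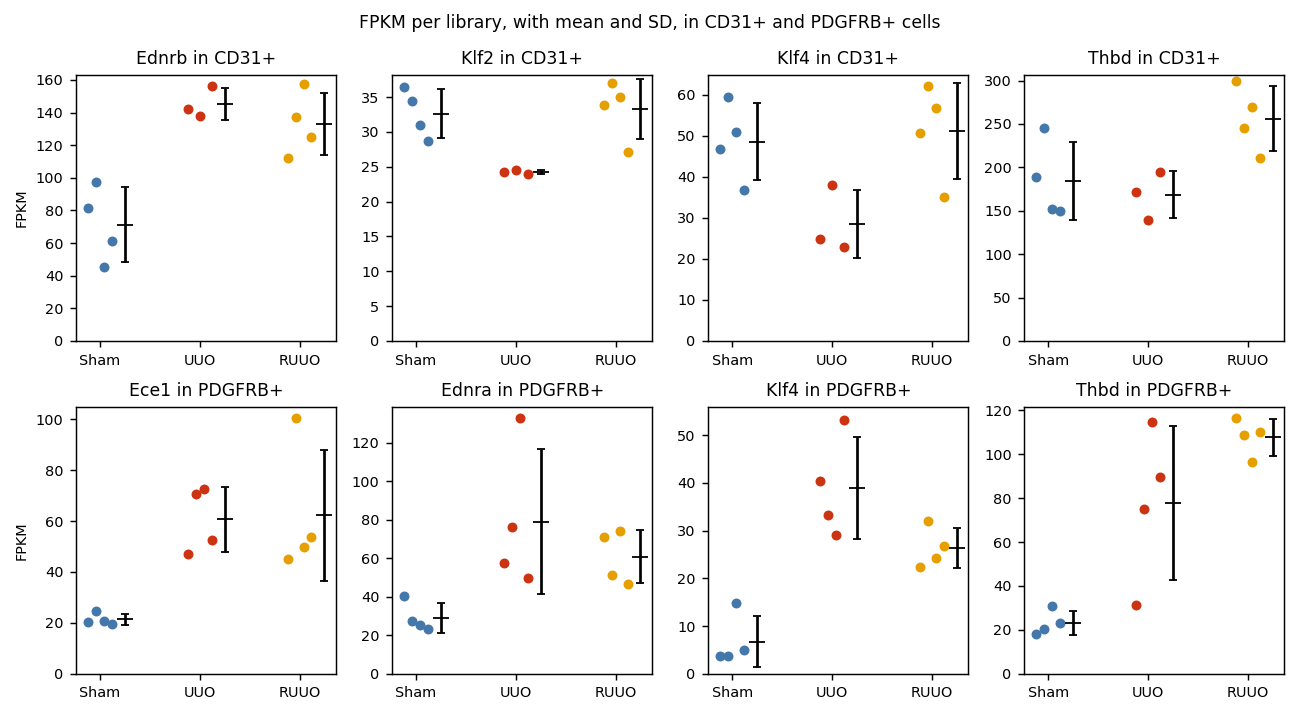
FPKM of each library, on linear axes from 0, for 4 genes in CD31+ cells (upper row) and 4 in PDGFRB+ cells (lower row), with mean and SD beside each group. In CD31+ cells Ednrb is above all Sham libraries in UUO and RUUO and Klf2 lies at 24.0 to 24.5 in UUO, whereas in PDGFRB+ cells Ece1, Ednra, Klf4 and Thbd are all above their Sham ranges in UUO and RUUO.

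In PDGFRB+ cells 4 genes rose after UUO and were still higher in RUUO: the converting enzyme Ece1, the receptor Ednra, the transcription factor Klf4 and the thrombin receptor Thbd. They were 4 of the 7 that passed the filter on low values, where 26.4% of the 14033 genes tested were called in UUO against Sham (13.4% as higher), and 17.2% in RUUO against Sham (11.6% as higher). Nos3 did not pass the filter, with 0.07 to 0.26 FPKM in Sham libraries, 0.02 to 0.22 in UUO and 0 to 1.47 in RUUO.

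Klf4 had the largest change of these genes after UUO, and Thbd in RUUO. Klf4 was at 3.64, 3.72, 14.7 and 4.92 FPKM in PDGFRB+ Sham, at 40.3, 33.2, 28.97 and 53.2 in UUO, and at 22.4, 32.0, 24.3 and 26.8 in RUUO. No UUO or RUUO library reached down to the Sham range, in which replicate 3 stood highest. The change was 2.53 ± 0.34 after UUO (SE; limma, adjusted p = 4.6e-05) and 2.01 ± 0.34 in RUUO (limma, adjusted p = 0.000594), above 98.7% and 98.1% of all genes tested. The mean in UUO, 38.9 ± 10.6 FPKM (SD, n = 4), was above the 28.6 ± 8.29 FPKM of CD31+ UUO (SD, n = 3), a pair of values that were not tested against each other.

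Thbd was at 18.0, 20.4, 31.0 and 23.0 FPKM in PDGFRB+ Sham, at 31.3, 74.9, 115 and 89.5 in UUO, and at 116, 109, 96.3 and 110.0 in RUUO. UUO replicate 1 lay just above the highest Sham library, and the RUUO libraries lay close together, at 108 ± 8.42 FPKM (SD, n = 4). The rise was 1.59 ± 0.31 after UUO (limma, adjusted p = 0.00113) and 2.20 ± 0.31 in RUUO (limma, adjusted p = 0.000111). Klf2 did not follow Klf4: it was at 6.27 ± 2.06, 9.69 ± 4.13 and 6.44 ± 1.73 FPKM in Sham, UUO and RUUO (SD, n = 4 each), with overlapping groups (limma, adjusted p = 0.247 for UUO against Sham).

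Ece1 was at 20.3, 24.6, 20.8 and 19.6 FPKM in Sham, at 46.9, 70.7, 72.4 and 52.5 in UUO, and at 45.3, 101, 49.7 and 53.7 in RUUO. The lowest UUO and RUUO libraries were well above the highest Sham library. The rise was 1.44 ± 0.24 in UUO (limma, adjusted p = 0.000347) and 1.43 ± 0.24 in RUUO (limma, adjusted p = 0.000582). Ednra was at 40.3, 27.5, 25.5 and 23.1 FPKM in Sham, at 57.4, 76.3, 133 and 49.8 in UUO, and at 71.1, 51.3, 73.9 and 46.6 in RUUO, again without overlap. Its change was 1.34 ± 0.28 in UUO (limma, adjusted p = 0.00223) and 1.04 ± 0.28 in RUUO (limma, adjusted p = 0.0173). The RUUO call for Ednra was lost without Sham replicate 4, RUUO replicate 1 or RUUO replicate 4 (change 0.94 to 0.96; limma, adjusted p = 0.0540 to 0.0566).

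The ligand Edn1 and the receptor Ednrb did not pass in PDGFRB+ cells. Edn1 ranged from 1.41 to 7.43 FPKM in Sham libraries, 1.4 to 5.92 in UUO and 1.55 to 5.4 in RUUO. Ednrb was at 3.63, 4.91, 2.36 and 4.13 FPKM in Sham, at 5.68, 8.61, 16.0 and 2.41 in UUO, and at 2.54, 2.67, 2.22 and 2.29 in RUUO. UUO replicate 4 stood apart from the other UUO libraries for Ednrb, and the change of 0.74 ± 0.41 (limma, adjusted p = 0.197) became 1.14 (limma, adjusted p = 0.0288) without it. Without the same library the fall from UUO to RUUO, -1.19 ± 0.41 (limma, adjusted p = 0.117), became -1.59 (limma, adjusted p = 0.0262). With all libraries none of the 7 genes was called between RUUO and UUO by limma (background 4.17%), with 1, Ednrb, at an unadjusted p under 0.05. Over all 14033 genes tested, 2777 were under that unadjusted cut.

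Other genes of the same pathways moved in both directions in PDGFRB+ cells. Over all 14033 genes tested, 1881 were called higher and 1823 lower after UUO. Of 21 nitric oxide genes, 7 fell and 1 rose, with a median change of -0.68 beside -0.07 over all genes. Nostrin, which binds and traffics Nos3, fell by 2.85 (SE 0.40; limma, adjusted p = 7.39e-05), and Gucy1a2, a subunit of the nitric oxide receptor guanylate cyclase, by 1.71 (SE 0.31; limma, adjusted p = 0.000716). Gucy1a2 was still lower in RUUO against Sham, at -1.57 ± 0.31 (limma, adjusted p = 0.00219). In that comparison Ddah2, another gene of this list, was higher by 1.23 ± 0.18 (limma, adjusted p = 0.000192). Of 14 other endothelin axis genes, 5 fell and none rose after UUO, with a median of -0.76. They include Arrb1, an arrestin that desensitises such receptors, at -1.56 ± 0.28 (limma, adjusted p = 0.000612), and Rgs4, which shortens Gq signalling, at -1.53 ± 0.33 (limma, adjusted p = 0.00293).

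Among 21 flow-sensing genes 3 rose and 5 fell after UUO. Mapk7, which encodes the kinase ERK5 upstream of the KLF factors, rose by 1.59 ± 0.31 (limma, adjusted p = 0.00130), and Plxnd1, a guidance receptor and flow sensor, fell by 1.85 (SE 0.31; limma, adjusted p = 0.000395). Of 11 other Krueppel-like factors, none rose after UUO and 2, Klf12 and Klf13, were called lower. Leaving out 1 library lost these calls in 7 of 8 cases for Klf12 and 4 of 8 for Klf13. Of 15 anticoagulant and procoagulant genes, 6 rose and 3 fell. The endothelial protein C receptor Procr, which works with Thbd, rose by 2.21 ± 0.40 (limma, adjusted p = 0.000723). Nt5e, the ectoenzyme CD73 of resting cortical fibroblasts, fell by 5.14 (SE 0.31; limma, adjusted p = 3.94e-08).

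The make-up of the PDGFRB+ libraries also differed between surgeries. Stromal markers (Pdgfrb, Pdgfra, Col1a1, Col1a2, Col3a1, Dcn and Cspg4) summed to 1164 to 2997 FPKM in Sham libraries, 8697 to 14540 in UUO and 5974 to 8174 in RUUO. Gja5, a connexin of arterial endothelium that juxtaglomerular and mesangial cells also express, was at 336 ± 46.9 FPKM in Sham and 2.92 ± 1.98 in UUO, and Ren1, which encodes renin, at 125 ± 81.6 and 11.2 ± 8.74 (SD, n = 4 each). The 15 immediate early genes summed to 333 to 424 FPKM in Sham libraries, 961 to 1869 in UUO and 1011 to 1849 in RUUO, with 12 and 13 of them called higher. The mitochondrial share was 34.0% to 45.8% in the Sham libraries of PDGFRB+ cells, 21.5% to 26.4% in UUO and 20.2% to 25.9% in RUUO. Markers of the thick limb, distal tubule and collecting duct summed to 387 to 579.7 FPKM, 33.6 to 69.5 and 56.4 to 104 in the same order. The 10 endothelial markers summed to 120 to 138 FPKM in the Sham libraries of PDGFRB+ cells, to 48.2 to 79.3 in UUO and to 76.5 to 144 in RUUO, lower in every UUO library than in any Sham library. Peritubular endothelial markers (Plvap, Igfbp3 and Igfbp5) summed to 1051 to 1515 FPKM, 169 to 595 and 138 to 205 in the same order. The part of these differences in the rises of Ece1, Ednra, Klf4 and Thbd was not tested. Nor was their part in the changes of the other pathway genes, such as the falls of Nostrin, Gucy1a2 and Plxnd1.

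The difference between the CD31+ and the PDGFRB+ change was tested as an interaction. After UUO it was called for 4 of the 8 genes (background 11.7%, and 6.17% as lower): Klf4 at -3.29 ± 0.45 (SE; limma, adjusted p = 2.1e-05), Ednra at -2.02 ± 0.49 (adjusted p = 0.00731, limma), Thbd at -1.70 ± 0.39 (limma, adjusted p = 0.00521) and Ece1 at -1.38 ± 0.33 (limma, adjusted p = 0.00684). A negative value means a lower change in CD31+ than in PDGFRB+ cells. In RUUO against Sham it was called for Klf4, Thbd and Ece1 (background 6.12%, and 3.29% as lower), at -1.95 ± 0.43, -1.71 ± 0.38 and -1.45 ± 0.32. For Ednrb, called in CD31+ cells alone, the difference in RUUO against Sham was 1.38 ± 0.46 and did not pass (limma, adjusted p = 0.0771), and after UUO it was 0.33 ± 0.48 (limma, adjusted p = 0.727). Its rise was therefore not shown to differ between the 2 populations. For RUUO against UUO no interaction was called by limma (background 0.483%), with 4 of the 8 at an unadjusted p under 0.05. Over all 14075 genes tested, 1538 were under that unadjusted cut.

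**Figure D3:**
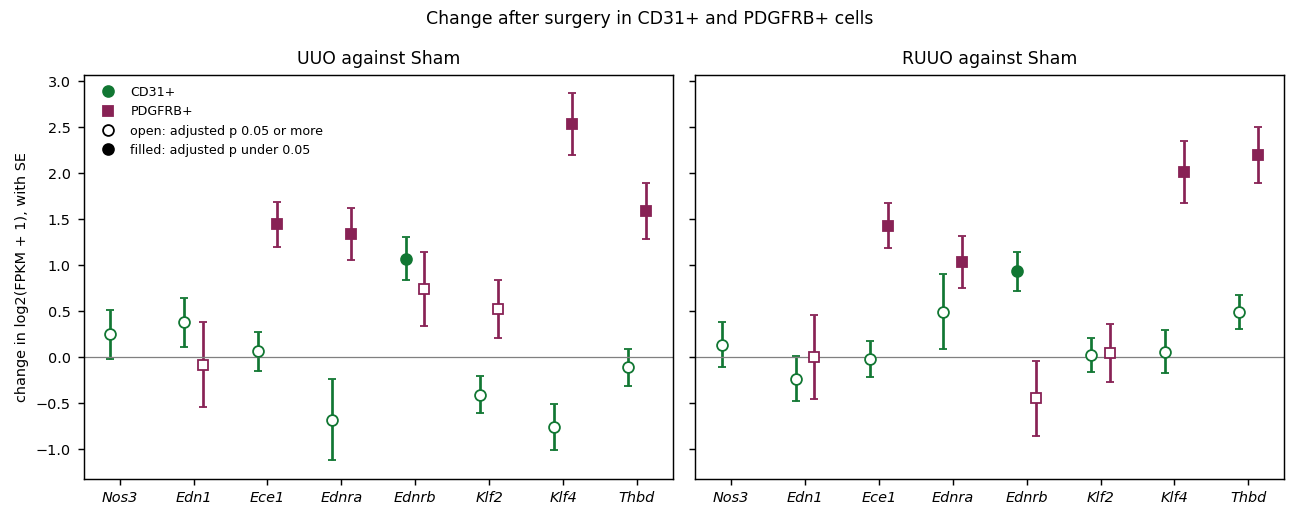
Change in log2(FPKM + 1) with its SE for each gene after UUO (left) and RUUO (right) against Sham, in CD31+ (circles) and PDGFRB+ cells (squares), filled where the limma adjusted p is under 0.05. Nos3 has no PDGFRB+ point, Ednrb is the only filled circle, and Ece1, Ednra, Klf4 and Thbd are filled squares in both panels.

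In F4/80+ macrophages Klf4, a factor also tied to monocyte differentiation, was the only one of 5 tested genes called. It was at 6.83, 3.86, 8.31 and 3.12 FPKM in Sham, at 17.6, 10.11, 14.96 and 11 in UUO, and at 18.14, 20.94 and 21 in RUUO. All UUO libraries lay above all Sham libraries, and all RUUO libraries above all UUO libraries. The rise was 1.19 ± 0.29 after UUO (SE; limma, adjusted p = 0.0323; background 4.99%, and 2.86% as higher) and 1.76 ± 0.31 in RUUO (limma, adjusted p = 0.00646; background 3.44%, and 1.89% as higher). The UUO call was lost without Sham replicate 1, 2 or 4 or without UUO replicate 1 or 3 (change 0.995 to 1.3; limma, adjusted p = 0.0509 to 0.1). Between RUUO and UUO none of the 5 genes and none of the 13332 genes tested was called by limma, with 1 of the 5 (Ednrb) and 945 of all genes at an unadjusted p under 0.05.

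Klf2 in F4/80+ cells was at 5.36, 6.16, 7.30 and 5.16 FPKM in Sham, at 4.52, 15.3, 8.21 and 23.0 in UUO, and at 15.7, 22.1 and 13.8 in RUUO. All RUUO libraries lay above all Sham libraries, with a change of 1.36 ± 0.41 that missed the threshold (limma, adjusted p = 0.0919). Ednrb split the UUO libraries, at 15.9, 4.71, 1.14 and 19.7 FPKM against 0.66 to 2.37 in Sham and 1.37 to 2.80 in RUUO. The Ednrb change after UUO was 1.64 ± 0.59 (limma, adjusted p = 0.130), and 2.28 without UUO replicate 3 (limma, adjusted p = 0.0161). The lymphatic markers Prox1, Lyve1 and Flt4 summed to 3.64 to 9.15 FPKM in Sham, 1.13 to 21.02 in UUO and only 0.58 to 3.33 in RUUO. Lymphocyte and neutrophil markers summed to 5.11 to 9.83 FPKM in Sham, to 47.1 to 136 in UUO and to 11.7 to 49.01 in RUUO, so that no UUO or RUUO library overlapped Sham. Proximal tubule markers summed to 251 to 370.4, 49.7 to 91.8 and 36.4 to 47.1 FPKM in Sham, UUO and RUUO, and the immediate early genes to 841 to 1150, 1599 to 2212 and 2635 to 3216 in Sham, UUO and RUUO. Their part in the Ednrb, Klf2 and Klf4 values was not tested.

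In LTL+ tubular cells the ligand gene Edn1 appeared after UUO and was lower again in RUUO. It was at 0.13, 0.05 and 0.07 FPKM in Sham, at 4.73, 6.24, 5.38 and 7.83 in UUO, and at 1.22, 1.47 and 1.57 in RUUO. The 3 groups did not overlap. Edn1 rose by 2.68 ± 0.28 after UUO (SE; limma, adjusted p = 7.84e-06) and fell by 1.53 (SE 0.28; limma, adjusted p = 0.0112) from UUO to RUUO, where it was the only one of 4 genes tested to be called and 3.83% of genes were called, 3.15% as lower. Against Sham the RUUO level was higher by 1.16 ± 0.30 (limma, adjusted p = 0.0308), a call lost on leaving out any 1 of the 6 libraries (change 1.11 to 1.22; limma, adjusted p = 0.0615 to 0.0886). The mean of 6.05 ± 1.34 FPKM in LTL+ UUO (SD, n = 4) stood below the 24.2 ± 3.45 of CD31+ UUO (SD, n = 3).

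Klf4 and Ece1 rose beside Edn1 in LTL+ cells. Klf4 was at 0.45, 0.8 and 0.45 FPKM in Sham, at 4.59, 3.80, 8.40 and 5.66 in UUO, and at 6.08, 3.97 and 9.40 in RUUO, changes of 2.04 ± 0.33 (limma, adjusted p = 0.000351) and 2.20 ± 0.35 (limma, adjusted p = 0.000993) against Sham. Its means were 5.61 FPKM in UUO and 6.48 in RUUO. Ece1 was at 31.8, 13.1 and 13.2 FPKM in Sham, at 33.4, 30.1, 39.3 and 37.3 in UUO, and at 19.9, 24.2 and 24.0 in RUUO. Sham replicate 1 lay within the UUO range, and the Ece1 change of 0.94 ± 0.28 (limma, adjusted p = 0.0196) was lost without Sham replicate 2 or 4 (change 0.73 to 0.74; limma, adjusted p = 0.0865 to 0.0944), and with no filter on low values, quantile normalization or scaling without mitochondrial genes (0.58 to 0.94; limma, adjusted p = 0.0647 to 0.123). These are 3 of 4 genes tested in LTL+ cells after UUO, against a background of 32.8% (27.9% as higher), and 2 of 4 in RUUO against Sham, against 7.46% (6.52% as higher). Thbd, the fourth, was at 1.31 ± 0.225 FPKM in Sham and 2.34 ± 0.829 in UUO and did not pass. Nos3, Ednra, Ednrb and Klf2 did not pass the filter on low values in LTL+ cells. Edn1 and Klf4 averaged 0.083 and 0.567 FPKM in Sham and passed the filter only through their UUO and RUUO libraries. A gene this low in Sham could be tested only if it was higher after surgery, so these counts are no support for a rise of the set.

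Most LTL+ genes shifted upward after UUO: 3186 were called higher and 561 lower, with a median change of 0.51 over all genes. With quantile normalization the split was 1283 and 1196 and the median -0.02, and the changes were then 2.32 for Edn1, 1.48 for Klf4 and 0.58 for Ece1, the last no longer called. Mitochondrial genes took 68.9% to 75.6% of the FPKM sum in Sham and 58.7% to 66.4% in UUO. Proximal tubule markers summed to 5182 to 6300 FPKM in Sham libraries, 2209 to 3250 in UUO and 3159 to 3441 in RUUO. Markers of the thick limb, distal tubule and collecting duct summed to 33.9 to 51.4, 191 to 260 and 82.6 to 181 FPKM, led by Umod at 17.4 ± 2.21 in Sham (SD, n = 3) and 147 ± 16.3 in UUO (SD, n = 4). The endothelial markers summed to 13.9 to 23.0, 16.7 to 40.9 and 22.1 to 32.6 FPKM. The part of other tubule segments in the Edn1 values was not tested.

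Other endothelin genes moved in LTL+ cells too. Of 12 tested, 5 rose and 1 fell after UUO, with a median of 0.71 beside 0.51 over all genes. Over all genes tested 32.8% were called, 27.9% as higher, so the list counts given here stand beside a general upward shift. Edn3, a further endothelin ligand, rose by 3.67 ± 0.42 (limma, adjusted p = 2.04e-05), and Mme, the peptidase neprilysin that degrades endothelins, by 3.5 ± 0.23 (limma, adjusted p = 1.05e-07). Among nitric oxide genes, 9 of 16 rose and 3 fell, and Ddah2 rose by 3.27 ± 0.27 (limma, adjusted p = 7.6e-07). Klf6, another factor of the family, rose by 2.72 ± 0.28 (limma, adjusted p = 6.53e-06), one of 4 of 10 other Krueppel-like factors to rise. The 15 immediate early genes included 14 that rose, with sums of 35.9 to 66.8 FPKM in Sham libraries, 270.2 to 395 in UUO and 235 to 324 in RUUO, and their part in these changes was not tested.

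**Figure D4:**
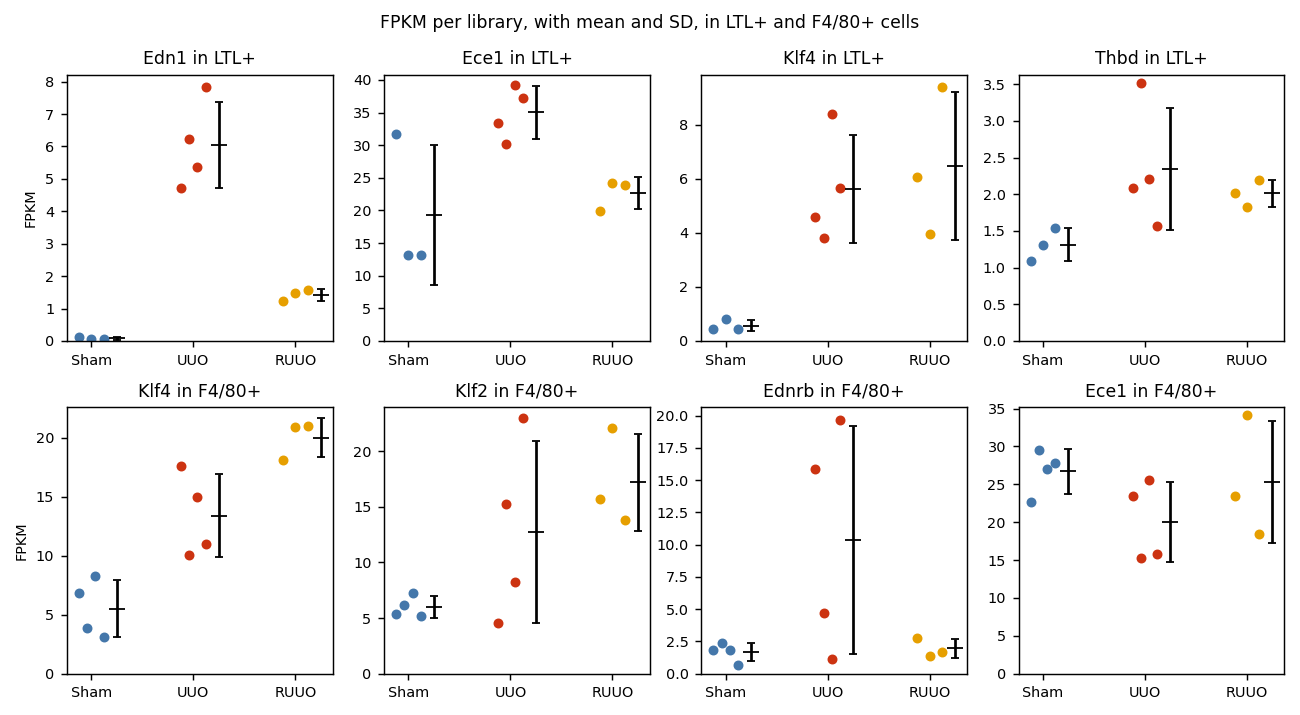
FPKM of each library, on linear axes from 0, for 4 genes in LTL+ cells (upper row) and 4 in F4/80+ cells (lower row) after Sham, UUO and RUUO, with mean and SD beside each group. Edn1 in LTL+ cells is highest in UUO and intermediate in RUUO, whereas Klf4 is above its Sham range in UUO and RUUO in both populations.

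Across the 12 population-by-surgery means on the log2 scale, each gene's closest matches among genes with at least 1 FPKM on average were found by Pearson's r. Nos3 was closest to Tie1 (r = 0.997), an endothelial receptor kinase, followed by 4833403J16Rik (r = 0.997) and Rasip1 (r = 0.997), and Edn1 to Gata2 (r = 0.977), a transcription factor of endothelium and blood. Ece1 was closest to Efr3b (r = 0.987), Ednra to Pknox2 (r = 0.994) and Gpc6 (r = 0.993), and Ednrb to Rgcc (r = 0.978) and Gimap6 (r = 0.977). Klf2 was closest to Hilpda (r = 0.983) and Thbd to Tspan18 (r = 0.988). Klf4 had the weakest best match of the 8, Pdcd6 at r = 0.953. These points are means of the same 44 libraries and are dominated by the differences between populations, so they describe pattern and not regulation.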

How the data were processed

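Sorted-cell RNA was made into amplified cDNA (Ovation V2) and run on a HiSeq instrument. The authors deposited FPKM values per gene. The submitters' processing notes name FastQC, RSEM, Bowtie2, DESeq2 and mm10, without versions or roles. Of 46 value columns, 44 were used: 2 share a single CD31+ UUO name and were not used here. No column is named for the library labelled LTL+ Sham 3, so it is absent from the LTL+ Sham group. Whether 1 of the 2 unused columns belongs to it cannot be told from the names. One LTL+ library, whose title names Sham as well as UUO, follows its treatment label, UUO. Genes averaging 1 FPKM or more across a fit's libraries were tested by limma 3.58.1 (lmFit, eBayes with an intensity trend) in R 4.3.3 on log2(FPKM + 1), with Benjamini-Hochberg adjustment over all genes tested and a threshold of 0.05. Each population's 3 surgeries shared 1 fit, as did the 4 Sham groups and, for the interaction, all CD31+ and PDGFRB+ groups, giving 21 comparisons. Values set across populations come from 1 table. The fits were tested on simulated data. A member's log2 change is printed where called or at least 0.3. Tables and figures used Python 3.11.15, pandas 2.3.3 and matplotlib 3.10.9.

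The genes, lists and tests were chosen with earlier results of these data known. The text names the 8 genes whatever their result, their closest matches, and per list at most the 3 largest called changes. Umod, Gja5 and Ren1 are marker genes named after their values were seen.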

Additional observations from a re-analysis of the deposited data

Results flagged for a closer look

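Ednra in CD31+ Sham replicate 4, at 0.9 FPKM, stood apart from the other 3 Sham libraries at 2.24 to 2.48 FPKM, with a gap of 0.882 of the group's range on the log2 scale (critical value 0.829). It was 1 of 64 groups of 4 libraries tested, and chance flags about 1 in 20. The changes in CD31+ and PDGFRB+ cells differed by the limma interaction for Ece1 (-1.38), Ednra (-2.02), Klf4 (-3.29) and Thbd (-1.70) after UUO against Sham, and for Ece1 (-1.45), Klf4 (-1.95) and Thbd (-1.71) in RUUO against Sham, each lower in CD31+ cells.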

How the results depend on the processing

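The settings tried in place of the main ones were TPM, a pseudocount of 0.1, no low-value filter, quantile normalization, scaling without mitochondrial genes, no intensity trend, all libraries in 1 fit, the replicate number as a block, and each library left out in turn. The 4 PDGFRB+ calls after UUO, the 7 interaction calls and the LTL+ calls of Edn1 and Klf4 after UUO held under all of them. The number of genes called fell from 1 to 0 in CD31+ UUO against Sham with no filter, TPM, scaling without mitochondrial genes, no trend, all libraries in 1 fit and the replicate block, and in CD31+ RUUO against Sham with no filter, quantile normalization, scaling without mitochondrial genes, no trend, all libraries in 1 fit and the replicate block. In F4/80+ UUO against Sham it was 0 with no filter, no trend and the block, and 2 (Ednrb and Klf4) with all libraries in 1 fit. In F4/80+ RUUO against Sham it was 2 (Klf2 and Klf4) with all libraries in 1 fit and 0 with the block, and in LTL+ RUUO against Sham 1 (Klf4) with no filter and with the block. F4/80+ Sham against LTL+ Sham gave 2 with quantile normalization and without mitochondrial genes. Leaving out 1 library gave 0 to 1 in CD31+ UUO and RUUO against Sham, PDGFRB+ RUUO against UUO and F4/80+ UUO against Sham, and 1 in LTL+ RUUO against Sham. The Ednra call in PDGFRB+ RUUO was lost with no filter and without mitochondrial genes (1.04 and 0.82). Signs turned for Thbd in LTL+ UUO with quantile normalization (-0.11), for Ece1 in PDGFRB+ against F4/80+ Sham without mitochondrial genes (0.13), for Ece1 in F4/80+ against LTL+ Sham with quantile normalization (-0.39) and without mitochondrial genes (-0.57), for Ednrb (-0.10) and Thbd (-0.037) in that comparison with quantile normalization, and for the Ednrb interaction after UUO without PDGFRB+ UUO replicate 4 (-0.071, the lowest value on leaving out 1 library, with 0.701 the highest). The cause was not tested.

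The labels do not say whether libraries of the same number come from the same mouse. Deviations from the group means correlated at -0.060 to 0.101 between surgeries of 1 population and -0.075 to 0.167 between populations of 1 surgery. These correlations cannot decide whether populations share mice, and the main tests across populations treat libraries as independent. Sham, UUO and RUUO were done on different mice, so within 1 population the number as a block does not pair libraries of 1 mouse. With that block the F4/80+ Klf4 change in RUUO against Sham was 1.75 (limma, adjusted p = 0.0680), and the Ednrb change was 0.87 in CD31+ UUO and 0.76 in RUUO against Sham. A block of surgery and number for the interactions was chosen after seeing the data; it gave the same 7 calls and added Ednrb in RUUO against Sham (1.38). Depth, unknown here, limits what can be said of Nos3 outside CD31+ cells.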
